A study of Mus musculus with 28 samples.

Results

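Genes of the mammalian G1 phase were read on liver arrays of phenobarbital-fed mice: the D-type cyclins Ccnd1, Ccnd2 and Ccnd3, the E-type cyclins Ccne1 and Ccne2, the kinases Cdk4 and Cdk6, and the kinase inhibitors Cdkn1b, Cdkn2b and Cdkn2c. They were chosen by name, through the RefSeq accession of each array probe, and are 10 of the 20145 named genes on the array. They are represented by 15 probes, with several probes for Ccnd3, Ccne1, Cdk4 and Cdkn2b. The 28 arrays, 1 per male mouse, fall into 6 groups. CD-1 mice, an outbred stock, ate phenobarbital (PB) at 1500 ppm or a control diet for 7 days (n = 4 each). hCAR/hPXR mice, which carry human CAR and PXR in place of these 2 mouse nuclear receptors, ate 1000 ppm PB or the control diet for 7 days (n = 7 each). C3H/HeNCrlCrlj mice, called C3H here, ate 500 ppm PB or the control diet for 27 weeks (n = 3 each), and both of their groups had first received 1 injection of 90 mg/kg diethylnitrosamine, a liver carcinogen. The labels do not give ages, and do not say whether the C3H liver was tumour or surrounding tissue. Strain, dose, duration, carcinogen and array slide differ together between the experiments and cannot be told apart.

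Cells decide in G1 whether to copy their DNA. Mitogens raise D-type cyclins, which activate CDK4 and CDK6; these kinases phosphorylate the retinoblastoma protein, and cyclin E with CDK2 completes the step, freeing E2F factors to switch on S-phase genes. The INK4 proteins, among them p15 (Cdkn2b) and p18 (Cdkn2c), bind CDK4 and CDK6 and block them, while p27 (Cdkn1b) acts mainly on cyclin E with CDK2. Adult hepatocytes rest outside the cycle and re-enter it after partial hepatectomy or with mitogens that act through CAR, the receptor by which PB induces drug-metabolising enzymes.

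Levels are given as log2 of the scanner's processed signal minus the 75th percentile of the same array, so that 0 is the level of that percentile and each unit is a doubling. A level of 1 probe is not set against that of another. All 3 known CAR target genes chosen as a check of the treatment, Cyp2b10, Cyp2c55 and Gadd45b, were higher with PB in each strain. The brightest probes were weakest on the CD-1 arrays, where the net signal at the 99th percentile was 4027 to 6495, against 30188 to 47746 for hCAR/hPXR and 22077 to 31767 for C3H mice. The share of probes well above background went another way, at 46.1% to 70.5% for CD-1, 46.5% to 58.6% for hCAR/hPXR and 41.3% to 46.0% for C3H arrays. In CD-1 mice the PB and control arrays lay on different slides, so slide and treatment cannot be told apart. In hCAR/hPXR mice 1 slide held the 7 controls and PB animal 1, and another held PB animals 2 to 7. All 6 C3H arrays shared a slide. No slide held arrays of 2 strains, so strain and slide cannot be told apart either. RNA came from liver tissue, where fewer cells of a type and less RNA per cell cannot be told apart. All 8 hepatocyte marker genes were well above background on every array.

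PB was followed by higher levels of G1 genes in hCAR/hPXR and C3H livers, and none of the 4 that could be tested passed in CD-1 livers. Cyclin E1 and the inhibitor p18 rose in both of these strains, cyclin E1 by 4.06-fold in C3H and 3.53-fold in hCAR/hPXR livers, and p18 by 4.95-fold in C3H and 1.76-fold in hCAR/hPXR livers. Cyclin D1 rose 5.26-fold in C3H and 1.48-fold in hCAR/hPXR livers, and Cdk4 rose modestly in both. Differences were tested with limma within each strain, and p-values were adjusted by Benjamini and Hochberg over all genes tested, array targets with no gene symbol here included. Of 8 G1 genes tested in hCAR/hPXR livers 7 rose and 0 fell, with a median log2 change of 0.44, against 0.13 over all genes tested; 58.1% of all genes tested passed the threshold there, 35.0% upward. With slide as a block 0 of these 8 passed by limma and 4 had an unadjusted p under 0.05, with a median of 0.43. Of 8 tested in C3H livers 4 rose and 0 fell, with a median of 0.85, against -0.05 over all genes; 14.7% of all genes passed, 7.38% upward. Of 4 tested in CD-1 livers 0 passed by limma, 0 had an unadjusted p under 0.05, and 0 passed in a fit of all 28 arrays, while 1 (Cdkn1b) passed with the normexp background correction; their median was -0.24, against -0.04 over all genes, of which 7.99% passed. Animals of a group differed more in CD-1. The median SD of genes well above background throughout a group was 0.37 to 0.40, against 0.15 to 0.22 in the other strains. With an SE of 0.26 to 0.36 in CD-1, a rise as small as that of Cdk4 in hCAR/hPXR livers could be missed. Ccne2 and Cdk6 were too dim to be tested in any strain. So were Ccnd1, Ccne1 and Cdkn2c and the main probe of Cdkn2b in CD-1. A gene was tested, by its main probe, only if that was well above background on every array of a group.

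**Figure D1:**
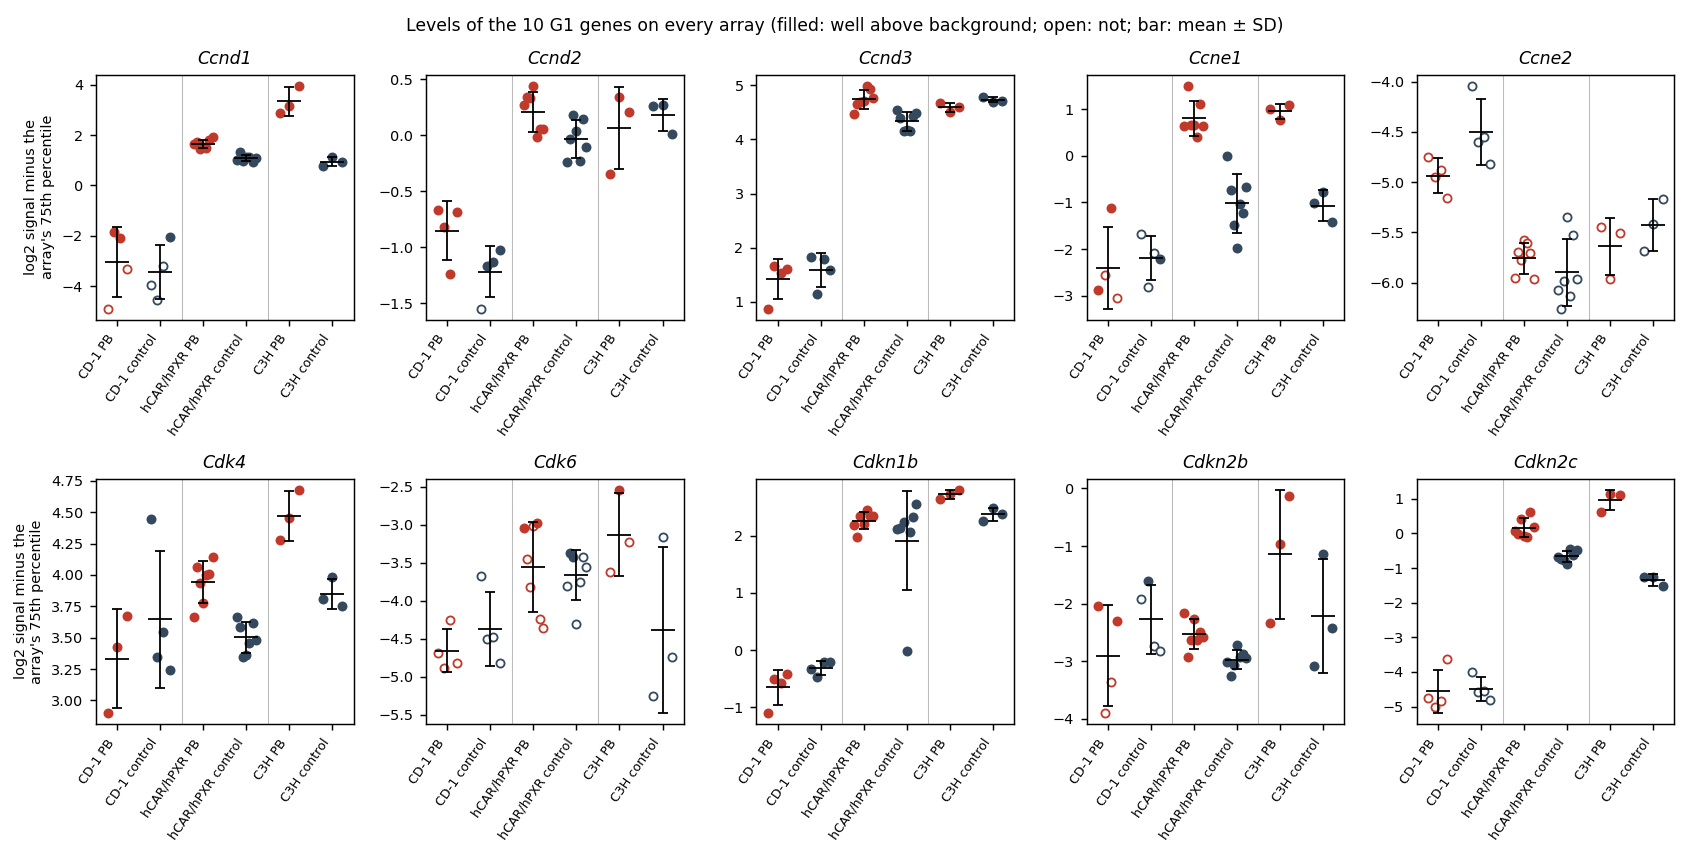
Level of each G1 gene on every array (log2 processed signal minus the array's 75th percentile; each panel has its own axis), with PB in red and control in dark blue; filled points were well above background, open points were not, and bars are means ± SD (n = 4, 7 and 3 per group in CD-1, hCAR/hPXR and C3H). PB and control points of Ccnd1, Ccne1 and Cdkn2c are apart in hCAR/hPXR and C3H, and all points of Ccne2 are open.

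Ccnd1 encodes cyclin D1, the D-type cyclin most often tied to hepatocyte re-entry into the cycle. In C3H livers its level was 2.89, 3.16 and 3.96 with PB, against 0.78, 1.12 and 0.93 in control livers. The lowest PB liver stood well above the highest control. The log2 change was 2.39 ± 0.28 (SE; limma adjusted p = 0.00629), and it stayed between 2.08 and 2.62 when each animal was left out in turn. Ccnd1 in hCAR/hPXR livers ran between 1.44 and 1.92 (median 1.64) with PB, against 0.95 to 1.32 (median 1.07) in controls. These groups did not overlap either, on a narrower scale, and the log2 change was 0.56 ± 0.09 (limma adjusted p = 0.000128). With the slide as a block, which sets PB animal 1 against the controls of its own slide, the change was 0.55 (limma adjusted p = 0.141). In CD-1 livers Ccnd1 was -4.89, -1.87, -2.09 and -3.31 with PB, against -3.94, -4.56, -3.21 and -2.06 in controls. It was well above background in 2 of 4 PB and 1 of 4 control livers, the groups overlapped, and it was not tested there.

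Ccnd2 encodes cyclin D2. In hCAR/hPXR livers it ran between -0.02 and 0.44 (median 0.27) with PB, against -0.24 to 0.18 (median -0.03) in controls. The groups overlapped and the rise was small, 0.25 ± 0.10 (limma adjusted p = 0.0409). This call was lost when any of 8 of the 14 animals was left out (PB animals 1 to 4 and control animals 1, 2, 5 and 7), with adjusted p between 0.0581 and 0.0866. With the slide as a block the change was 0.30 (limma adjusted p = 0.498). In C3H livers Ccnd2 was -0.35, 0.34 and 0.20 with PB, against 0.26, 0.27 and 0.01 in controls. One PB liver lay below all controls and another above them, and the difference of -0.12 ± 0.21 did not pass (limma adjusted p = 0.725). In CD-1 livers it was -0.67, -0.82, -1.24 and -0.68 with PB, against -1.55, -1.17, -1.13 and -1.02 in controls. The groups overlapped through PB animal 3, and the difference was 0.36 ± 0.26 (limma adjusted p = 0.382).

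Ccnd3 encodes cyclin D3, and its main probe was well above background on all 28 arrays. In hCAR/hPXR livers it ran between 4.47 and 4.99 (median 4.71) with PB, against 4.15 to 4.55 (median 4.40) in controls. Only PB animal 1, at 4.47, lay within the range of the controls, and the rise was 0.41 ± 0.10 (limma adjusted p = 0.00231). Since animal 1 is the PB liver on the slide of the controls, the change with slide as a block was 0.14 (limma adjusted p = 0.767). In C3H livers Ccnd3 was 4.67, 4.51 and 4.60 with PB, against 4.79, 4.70 and 4.71 in controls. Every PB liver was lower than every control, but by only -0.14 ± 0.11 (limma adjusted p = 0.415). In CD-1 livers it was 0.88, 1.66, 1.53 and 1.61 with PB, against 1.82, 1.15, 1.80 and 1.60 in controls. PB animal 1 was the lowest of the 8, the groups overlapped, and the difference of -0.17 ± 0.29 did not pass (limma adjusted p = 0.719); without PB animal 1 it was 0.0090. The second Ccnd3 probe gave log2 changes of 0.53 in hCAR/hPXR, -0.11 in C3H and 0.14 in CD-1. On it CD-1 PB animal 1 was the highest of the 8.

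Over the 3 log2 changes, PB minus control, the named genes closest to Ccnd3 among 7932 genes bright on every array were Dgcr6, Aldoc and Elmod3, at Euclidean distances of 0.0092, 0.015 and 0.031 on the log2 scale. These distances are smaller than the SE of each Ccnd3 change, which was 0.29 in CD-1, 0.10 in hCAR/hPXR and 0.11 in C3H livers. Whether these genes respond together was not tested. Ccnd3 was the only G1 gene to which this rule applied, being bright on every array and called in a strain.

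Ccne1 encodes cyclin E1, the partner of CDK2 at the entry into S phase. In C3H livers it was 0.99, 0.77 and 1.09 with PB, against -1.01, -0.77 and -1.43 in controls. The groups were more than 1 log2 unit apart, and the change was 2.02 ± 0.20 (4.06-fold, limma adjusted p = 0.00349). Among hCAR/hPXR livers it ran between 0.40 and 1.503 (median 0.65) with PB, against -1.98 to -0.0018 (median -1.04) in controls. All PB livers exceeded all controls, which spread widely, and the change was 1.82 ± 0.26 (3.53-fold, limma adjusted p = 6.1e-05). Within the slide of the controls PB animal 1 gave a change of 1.66 (limma adjusted p = 0.140). In CD-1 livers Ccne1 was -2.89, -2.56, -1.13 and -3.04 with PB, against -1.68, -2.82, -2.08 and -2.22 in controls. It was well above background in 2 of 4 PB livers and 1 of 4 controls, and the groups overlapped. A second Ccne1 probe was not well above background on any array. When both probes were averaged, the C3H change was 1.34 and just missed the threshold (limma adjusted p = 0.0502), and the hCAR/hPXR change was 1.06. With normexp, a background correction, the C3H change of the main probe was 1.06 (limma adjusted p = 0.00363), and the hCAR/hPXR change was 1.30.

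Ccne2, for cyclin E2, was not well above background on any of the 28 arrays. Its measured levels ran between -6.26 and -4.04. No change of it could be read at this signal.

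**Figure D2:**
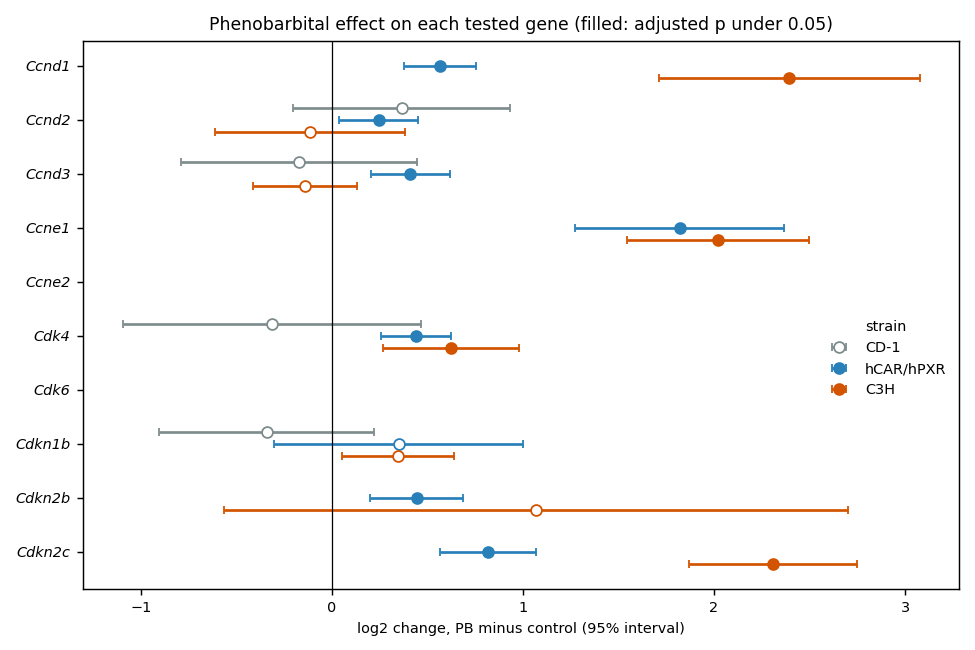
Log2 change, PB minus control, of each tested G1 gene with its 95% interval, in CD-1 (grey), hCAR/hPXR (blue) and C3H (orange); filled points passed an adjusted p of 0.05, and untested genes have no point. Ccnd1 and Cdkn2c lie above 2 in C3H and below 1 in hCAR/hPXR, Ccne1 lies near 2 in both, and no CD-1 point is filled.

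Cdk4 encodes the kinase that D-type cyclins activate in most tissues. Its promoter is shown because, of the 7 G1 genes with a RefSeq promoter window here (no window for Ccnd1, Ccnd2 and Ccne2), it alone held several copies of the E-box CACGTG, the palindrome bound by MYC with MAX, in the 250 bases before its start. The letters in capitals mark the E-boxes, whose first bases lie 172, 118, 98 and 11 bases before the start (GRCm38.p6, chr10:127063285-127063534, + strand).
Cdk4: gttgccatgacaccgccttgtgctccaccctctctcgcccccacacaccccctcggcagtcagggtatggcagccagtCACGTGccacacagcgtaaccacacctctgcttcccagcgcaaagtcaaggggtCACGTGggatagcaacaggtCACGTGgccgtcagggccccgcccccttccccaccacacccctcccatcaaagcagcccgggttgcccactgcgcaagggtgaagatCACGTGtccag
Of 32851 RefSeq windows of the same length 6.02% held 1 or more E-boxes, and 7 windows (0.0213%) held 4 or more. The Cdk6 window held 1, and those of Ccnd3, Ccne1, Cdkn1b, Cdkn2b and Cdkn2c held none. The E2F letters TTTGGCGC, TTTCCCGC, TTTGCCGC and TTTCGCGC, searched on both strands, occurred in none of the 9 windows of these genes and in 1.86% of all windows. These matches describe letters in a window and were not tested against any binding.

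In C3H livers Cdk4 was 4.28, 4.46 and 4.68 with PB, against 3.81, 3.99 and 3.75 in controls. The groups did not overlap, and the rise was 0.62 ± 0.15 (1.54-fold, limma adjusted p = 0.0408). The call was lost when any animal but PB animal 1 was left out (adjusted p between 0.0843 and 0.132), while the change stayed between 0.52 and 0.72. Cdk4 in hCAR/hPXR livers ran between 3.67 and 4.14 (median 4.00) with PB, against 3.35 to 3.66 (median 3.48) in controls. The groups met at their edges without overlapping, the lowest PB liver being animal 1, and the rise was 0.44 ± 0.09 (1.36-fold, limma adjusted p = 0.000627). With the slide as a block it was 0.16 (limma adjusted p = 0.658). In CD-1 livers Cdk4 was 2.90, 3.43 and 3.67 in PB animals 1, 3 and 4, the spot of animal 2 having been marked an outlier by the scanner software and left out, against 4.44, 3.35, 3.54 and 3.25 in controls. The groups overlapped and the difference was -0.31 ± 0.36 (limma adjusted p = 0.592). The other 2 Cdk4 probes moved the same way in every strain, by 0.37 and 0.56 in C3H, 0.42 and 0.83 in hCAR/hPXR, and -0.21 and -0.37 in CD-1.

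Cdk6, for the second kinase of the D-type cyclins, was well above background on 5 of 28 arrays. These were 1 of 3 C3H PB livers, 2 of 7 hCAR/hPXR PB livers and 2 of 7 hCAR/hPXR controls. Its level ran between -3.62 and -2.54 in C3H PB livers, against -5.25 to -3.16 in C3H controls. The ranges overlapped, and the gene was not tested.

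Cdkn1b encodes p27, and was well above background on all arrays. In C3H livers it was 2.64, 2.74 and 2.80 with PB, against 2.26, 2.49 and 2.39 in controls. All PB livers were higher, but the difference of 0.35 ± 0.12 did not pass (limma adjusted p = 0.100). Among hCAR/hPXR livers it ran between 1.98 and 2.45 (median 2.34) with PB, against -0.016 to 2.55 (median 2.13) in controls. Control animal 4 alone was near 0, with the other controls at 2.06 or above. The difference was 0.35 ± 0.31 (limma adjusted p = 0.337) with that animal and 0.027 (limma adjusted p = 0.828) without it. In CD-1 livers Cdkn1b was -1.10, -0.51, -0.57 and -0.41 with PB, against -0.33, -0.48, -0.21 and -0.22 in controls. The groups overlapped, and the difference was -0.34 ± 0.26 (limma adjusted p = 0.410).

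Cdkn2b encodes p15, an INK4 inhibitor induced by TGF-beta. Among hCAR/hPXR livers it ran between -2.92 and -2.16 (median -2.57) with PB, against -3.25 to -2.71 (median -2.94) in controls. The groups overlapped and the rise was 0.44 ± 0.11 (1.36-fold, limma adjusted p = 0.00417). Here PB animal 1 was the highest PB liver, and the change with slide as a block was larger, at 0.81 (limma adjusted p = 0.0594). In C3H livers Cdkn2b was -2.34, -0.97 and -0.12 with PB, against -3.08, -1.14 and -2.42 in controls. Animals of the same group differed by more than 1 log2 unit, and the difference of 1.07 ± 0.68 did not pass (limma adjusted p = 0.304). In CD-1 livers it was -2.04, -3.89, -3.35 and -2.30 with PB, against -1.92, -1.60, -2.73 and -2.81 in controls. It was well above background in 2 of 4 PB livers and 1 of 4 controls, and was not tested. The second Cdkn2b probe disagreed in detection: it was well above background on no hCAR/hPXR or C3H array, but in 4 of 4 CD-1 PB livers and 3 of 4 CD-1 controls, with a log2 difference of 0.81 and an unadjusted limma p of 0.152.

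Cdkn2c encodes p18, an INK4 inhibitor whose gene is an E2F target. In C3H livers it was 0.63, 1.14 and 1.12 with PB, against -1.25, -1.25 and -1.53 in controls. The gap between the groups was far wider than the spread within them, and the rise was 2.31 ± 0.18 (4.95-fold, limma adjusted p = 0.00185), or 1.37 with normexp. Among hCAR/hPXR livers it ran between -0.11 and 0.62 (median 0.06) with PB, against -0.88 to -0.44 (median -0.69) in controls. The groups did not overlap, and the rise was 0.82 ± 0.12 (1.76-fold, limma adjusted p = 6.9e-05). With the slide as a block the change was 0.71 (limma adjusted p = 0.158). In CD-1 livers Cdkn2c was well above background on no array, so that no change could be read there.

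Groups did not overlap for 4 of the 8 tested genes in hCAR/hPXR livers (Ccnd1, Ccne1, Cdk4 and Cdkn2c), where 20.5% of all genes were that far apart. They did not overlap for 6 of 8 in C3H livers, where 41.6% were. With slide as a block 0 of the 8 hCAR/hPXR genes passed the limma test, and 440 of all genes passed, against 11643 without the block. Both counts rest, within the slide, on 1 PB liver. That liver lay above the highest control for Ccnd1, Ccnd2, Ccne1, Cdk4, Cdkn2b and Cdkn2c, and within the range of the controls for Ccnd3 and Cdkn1b. For Cdk4 it was barely above, at 3.667 against 3.664. On the second Cdk4 probe it lay within the controls, at 2.95 against 2.59 to 3.08. On the third it lay above them, at 1.31 against 0.72 to 1.13.

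**Figure D3:**
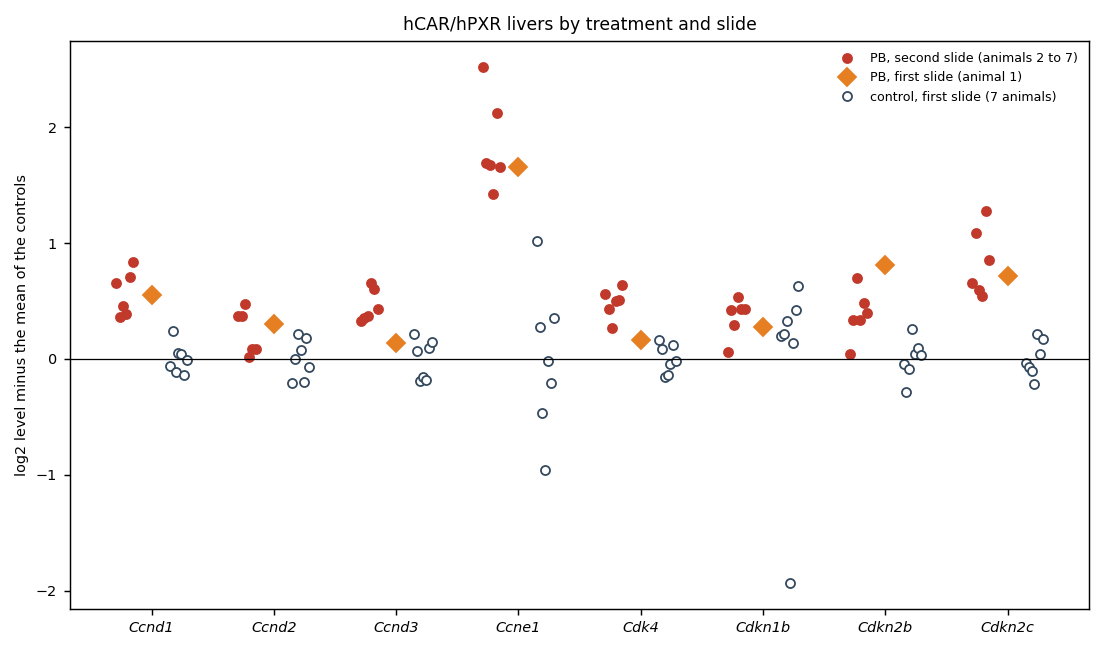
Levels of 8 G1 genes in hCAR/hPXR livers, as log2 difference from the mean of the 7 controls: PB animals 2 to 7 on the second slide (red), PB animal 1 on the first slide (orange diamond) and the 7 controls on the first slide (open). PB animal 1 lies with the other PB livers for Ccnd1, Ccne1 and Cdkn2c, below them for Ccnd3 and Cdk4 and above them for Cdkn2b; 1 control is far below the others for Cdkn1b.

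Whether PB acted differently between strains was tested as a difference of the log2 changes in 1 limma fit of all 28 arrays; the 3 contrasts share strains. For C3H minus hCAR/hPXR, 1 of 8 genes passed, upward, where 9.55% of all genes did, 4.16% upward. Cdkn2c rose 1.49 ± 0.32 further in C3H (limma adjusted p = 0.00336), and its call held under each of the 6 alternatives run. Ccnd1 rose 1.83 ± 0.62 further in C3H, which narrowly missed the threshold (limma adjusted p = 0.0615) and passed when each strain was given its own weight for its spread (adjusted p = 0.00284) and with normexp (adjusted p = 2.4e-06). Ccnd3 went the other way, by -0.55 ± 0.23 (limma adjusted p = 0.139), and passed with strain weights (adjusted p = 0.0439) and with the mean of its probes (-0.595, adjusted p = 0.0405). For Ccne1 the difference was 0.20, with a 95% interval of -0.83 to 1.23, and for Cdk4 it was 0.18, with an interval of -0.38 to 0.75. These intervals hold 0, and leave room for a difference of either sign. The fit takes the spread of a gene from all 28 arrays, CD-1 included, where Ccnd1 and Ccne1 were too dim to be tested. The SD of Ccnd1 in CD-1 was 1.39 with PB and 1.08 in controls. In hCAR/hPXR it was 0.18 and 0.13, and in C3H 0.56 and 0.17.

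The PB effect was set against that in CD-1 only for Ccnd2, Ccnd3, Cdk4 and Cdkn1b, the 4 genes tested within CD-1 as well as within the other strains. Of these, 2 had a larger PB effect in hCAR/hPXR, where 35.7% of all genes tested in both strains differed, 26.6% upward. In C3H 1 had a larger effect, where 16.2% differed, 11.8% upward. Cdk4 differed by 0.75 ± 0.27 in hCAR/hPXR (limma adjusted p = 0.0379) and by 0.94 ± 0.32 in C3H (limma adjusted p = 0.04996, just under the threshold). Ccnd3 differed by 0.58 ± 0.22 in hCAR/hPXR (limma adjusted p = 0.0456). The Cdk4 and Ccnd3 calls were lost without the filter on dim probes (adjusted p between 0.0547 and 0.0730), with strain weights (between 0.0707 and 0.0994) and with quantile normalization, where the differences of Cdk4 were 0.29 in hCAR/hPXR (limma adjusted p = 0.270) and 0.60 in C3H (limma adjusted p = 0.0672), and that of Ccnd3 was 0.20 (limma adjusted p = 0.453).

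**Figure D4:**
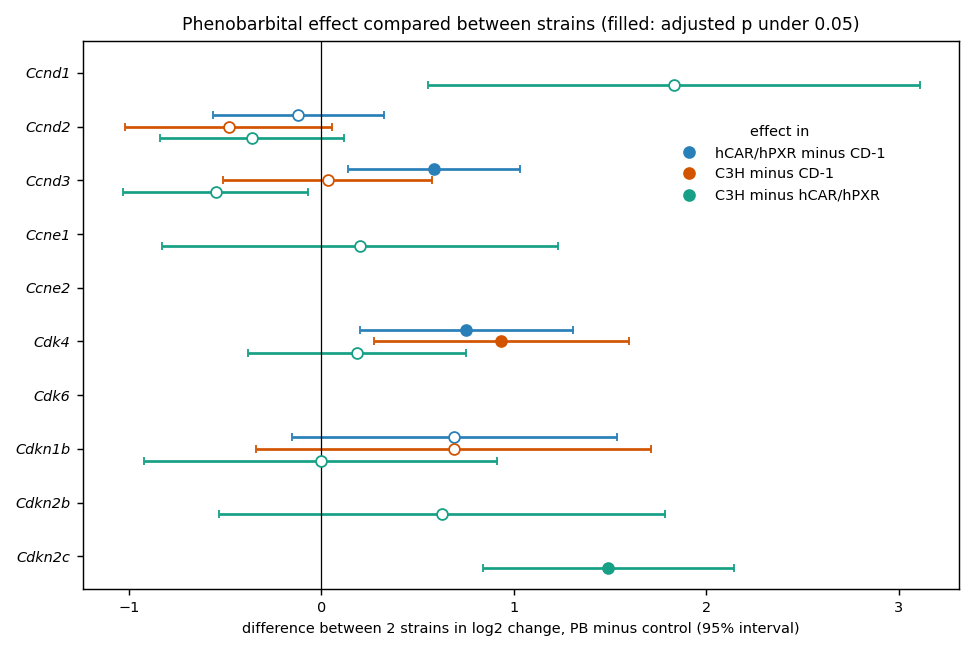
Difference between strains in the log2 change, PB minus control, of each tested G1 gene, with its 95% interval: hCAR/hPXR minus CD-1 (blue), C3H minus CD-1 (orange) and C3H minus hCAR/hPXR (green); filled points passed an adjusted p of 0.05, and a contrast is drawn only for genes tested within both strains. Cdk4 is filled in both contrasts against CD-1, Cdkn2c is filled in C3H minus hCAR/hPXR, and for Ccne1 that contrast spans 0.

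Control livers of different strains lay on different slides, so strain and slide cannot be told apart in any comparison of control levels. These levels differed for many genes on the array. Of all genes tested 88.2% passed for hCAR/hPXR minus CD-1, 88.9% for C3H minus CD-1 and 48.4% for C3H minus hCAR/hPXR. The median over all genes was 0.57, 0.73 and 0.18 in these contrasts with the 75th percentile scaling, and 0.31, 0.31 and 0.05 with quantile normalization. Of the 4 G1 genes tested in CD-1 as well, 3 were higher in hCAR/hPXR controls than in CD-1 controls, where 55.7% of all genes tested in both strains were higher, and 3 in C3H controls, where 60.0% were. Ccnd1 averaged 1.08 ± 0.13 in hCAR/hPXR controls (SD, n = 7) and 0.94 ± 0.17 in C3H controls (SD, n = 3), and only 1 of 4 CD-1 controls had it well above background, so no difference is given. Cdkn2c was at least 4.23-fold higher in hCAR/hPXR controls and at least 2.62-fold higher in C3H controls than in CD-1 controls. These are bounds, since Cdkn2c was well above background in no CD-1 control and the dim side was set to the lowest signal marked well above background on each array.

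Ccnd3 was 2.74 ± 0.15 higher in hCAR/hPXR controls and 3.14 ± 0.18 higher in C3H controls than in CD-1 controls (limma adjusted p = 4.1e-15 and 2.0e-14). Cdkn1b was 2.23 ± 0.29 higher in hCAR/hPXR controls and 2.69 ± 0.35 higher in C3H controls (limma adjusted p = 5.8e-08 and 6.8e-08). Ccnd2 was 1.18 ± 0.15 higher in hCAR/hPXR controls and 1.40 ± 0.18 higher in C3H controls, with 3 of 4 CD-1 controls well above background. Ccne1 was so in 1 of 4, and no difference of it is given. Cdk4 differed from CD-1 by -0.14 ± 0.18 in hCAR/hPXR and by 0.20 ± 0.22 in C3H controls with its main probe, and neither passed. Its sign turned with the processing: the difference was -1.66 in hCAR/hPXR and -1.65 in C3H with quantile normalization, and 1.21 and 1.68 with the mean of its probes. Between C3H and hCAR/hPXR controls 2 of 8 genes passed. Cdkn2c was 0.69 ± 0.22 lower on the log2 scale in C3H controls (limma adjusted p = 0.0128; -0.23 and 0.0630 with normexp), and Ccnd3 was 0.40 ± 0.17 higher (limma adjusted p = 0.0481), a call that was lost, at -0.019, with quantile normalization. The other 6 did not pass. Of these, Cdk4 was 0.35 ± 0.19 higher in C3H controls, with no overlap (limma adjusted p = 0.145; 0.0418 with strain weights), and Cdkn2b was 0.76 ± 0.40 higher (limma adjusted p = 0.119; 0.0393 with quantile normalization and 0.0278 with normexp).

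Among 28 other genes of G1 and S-phase entry, 27 had a named probe (all but Skp2). In hCAR/hPXR livers 15 of 27 tested rose and 3 fell, beside the 58.1% of all genes that passed and the 35.0% that rose, with a median change of 0.52, against 0.13 over all genes. Of the 25 well above background on each PB and control array 14 rose and 3 fell. With slide as a block 3 of the 27 rose, 0 fell and the median was 0.38. Ccna2, the S-phase cyclin A2, rose 5.68-fold, the E2F factors E2f2 and E2f1 rose 2.29-fold and 2.05-fold, and Rbl1, the retinoblastoma relative p107, rose 2.97-fold (limma adjusted p between 1.9e-06 and 2.1e-05), Rbl1 being well above background in 5 of 7 controls. In C3H livers 7 of 27 rose and 1 fell, beside 14.7% of all genes that passed and 7.38% that rose, with a median of 0.22, against -0.05 over all genes. Of the 24 bright (well above background) on each PB and control array, 5 rose and 1 fell. Myc, a growth-promoting transcription factor, rose 7.15-fold and E2f1 2.60-fold (limma adjusted p = 0.00132 and 0.0137). Ccna2 and Rbl1 also passed, but each was well above background in 1 of 3 controls, and no fold is given for them. In CD-1 livers 12 were tested, of which 1 rose (E2f2, 2.65-fold, limma adjusted p = 0.0199) and 1 fell (E2f8, a repressing E2F factor, limma adjusted p = 0.0181), beside 7.99% of all genes that passed. E2f8 was well above background in 1 of 4 PB livers and 4 of 4 controls, and no fold is given for it.

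Markers of dividing cells moved with the G1 genes. In hCAR/hPXR livers all 7 bright on each PB and control array rose, with a median change of 2.21, where 35.0% of all genes tested rose. The rest of the 11 tested also rose, but were tested only because they were bright with PB. With slide as a block 5 of the 11 passed. Their summed level, each in units of the array's 75th percentile, was 35.7 to 59.5 with PB, against 13.99 to 20.9 in controls. In C3H livers all 6 bright on each PB and control array rose, with a median of 4.18, where 7.38% of all genes tested rose. The rest of the 11 tested there also rose, but again were tested only because they were bright with PB. The summed level was 49.7 to 120.5 with PB, against 11.5 to 14.6 in controls. In CD-1 livers 0 of the 3 bright on each PB and control array passed by limma, with 0 at an unadjusted p under 0.05. Of the 6 tested 2 rose (Birc5 and Cdc20), both tested only because they were bright with PB. Of all 23789 genes tested in CD-1 livers 7.99% passed either way, and 440 genes rose. The summed level there was 3.87 to 8.10 with PB, against 3.26 to 4.45 in controls. Markers well above background on no array of a group were Aurkb in the hCAR/hPXR and C3H PB groups, Bub1 and Aurkb in hCAR/hPXR controls, and Top2a, Cdk1 and Bub1 in C3H controls. In CD-1 they were Top2a, Cdk1 and Aurkb with PB and, in controls, these and Ccnb1, Bub1, Plk1 and Cdc20.

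Hepatocyte markers fell for 4 of 8 in C3H livers, with a summed level of 5065 to 6184 with PB, against 7656 to 8384 in controls. They fell for 3 of 8 in CD-1 livers (3005 to 4838 with PB, against 4140 to 6854 in controls) and for 0 of 8 in hCAR/hPXR livers by limma, with 0 at an unadjusted p under 0.05. Their median log2 change in hCAR/hPXR livers was -0.06, and -0.29 with slide as a block, which rests on 1 PB liver. Markers of other liver cells passed as well. Of all genes tested 58.1% passed in hCAR/hPXR livers (35.0% upward), 14.7% in C3H and 7.99% in CD-1 livers. The hepatocyte counts stand beside the same shares. In hCAR/hPXR livers 2 of 5 Kupffer cell and 2 of 3 bile duct markers rose, 2 of 4 lymphocyte and 1 of 3 neutrophil markers fell, 2 of 6 endothelial markers rose and 1 fell, and 1 of 5 stellate cell markers rose and 1 fell. With slide as a block 0 of these passed by limma, and 2, both endothelial, had an unadjusted p under 0.05. In C3H livers 1 of 3 bile duct and 1 of 6 endothelial markers rose and 1 of each fell. The summed level of lymphocyte markers was 8.35 to 10.67 with PB, against 11.8 to 15.97 in controls, in hCAR/hPXR livers. In C3H livers the sums of endothelial markers (80.6 to 115.0 with PB, against 132.7 to 146.7 in controls), stellate cell markers (32.8 to 83.2, against 84.97 to 104.4) and lymphocyte markers (9.18 to 10.3, against 12.2 to 14.1) were lower in every PB liver. Such sums weigh the brightest genes most. Gene by gene in C3H livers, 0 of 5 stellate cell markers passed by limma, with a median log2 change of 0.21 (-0.99 to 2.16). The endothelial markers there had a median of -0.12 (-0.72 to 1.34). In CD-1 livers 1 of 4 lymphocyte markers fell and 1 of 3 neutrophil markers rose. The part of these shifts in the levels of the G1 genes was not tested.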

How the data were processed

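Total liver RNA of 28 male mice was labelled in 1 colour and hybridised to Agilent mouse arrays, 1 array per animal. Per the file headers, the deposited intensity values are processed signals of Agilent Feature Extraction 10.7.3.1, background-subtracted and detrended within each array and not normalized between arrays. The deposited log2 value table was found to be the same signals, which the authors shifted by a constant per array, within -0.0233 to 0.0102 of the 75th percentile used here; its column medians lay between -3.86 and -1.30.

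Outlier spots (109 to 430 per array) were left out, spots of a probe averaged on the log2 scale, and each array's 75th percentile over 55681 non-control probes subtracted. The number of arrays limits the precision. Probes were named through RefSeq accessions with GRCm38.p6 (26582 probes, 20145 symbols; 29099 probes had no symbol here), and a gene was represented by whichever of its probes had the highest average level. Targets with no symbol were kept under their array identifier, and counts over all genes include them (37208 genes and unnamed targets in all). A gene was tested if well above background on every array of 1 or more of the groups compared. Each strain was fitted on its own by lmFit and eBayes of limma 3.58.1 (R 4.3.3), with two-sided tests, and differences between strains in 1 fit of all arrays, given for genes tested within both strains; p-values were adjusted by Benjamini and Hochberg over all genes tested, with a threshold of 0.05. The fits were tested on simulated data. Named genes are all 10 G1 genes with every probe, up to 4 called genes of the other G1 list with the smallest adjusted p per comparison of PB with control, and the nearest genes by change. Genes, lists and tests were chosen with earlier results of these data known, so none of them is independent evidence. Promoter windows are RefSeq's, GRCm38.p6. Alternatives were quantile normalization, normexp (offset 50) with quantile normalization, no filter and a stricter filter, the mean of all probes, the deposited log2 table, 1 joint fit, slide and replicate blocks, leaving out each animal and, added after seeing the data, a weight per strain. The labels number biological replicates. Same-numbered animals were not treated as pairs: the correlations of their deviations from the group means were -0.45 to 0.19 in CD-1, -0.14 to 0.28 in hCAR/hPXR and 0.089 to 0.20 in C3H mice.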

Additional observations from a re-analysis of the deposited data

Results flagged for a closer look

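The main Ccnd3 probe in CD-1 PB animal 1, at 0.88, was far below the other 3 PB livers, at 1.53 to 1.66. On the second Ccnd3 probe the same animal, at 0.36, was the highest of all CD-1 livers. Cdkn1b in hCAR/hPXR control animal 4, at -0.016, was far below the other 6 controls, at 2.06 to 2.55. Among 39 sets of values checked in this way, some such gaps arise by chance.

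Among G1 genes tested within both strains, the PB effect differed between strains in 4 tests. Between hCAR/hPXR and CD-1 mice the log2 change was larger in hCAR/hPXR by 0.58 for Ccnd3 and 0.75 for Cdk4. Between C3H and CD-1 mice it was larger in C3H by 0.94 for Cdk4. Between C3H and hCAR/hPXR mice it was larger in C3H by 1.49 for Cdkn2c.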

How the results depend on the processing

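Of 646 alternative values of single G1 genes, 559 kept direction and side of the threshold, 46 lost the call, 21 gained one and 20 changed sign. These include contrasts against CD-1 of genes too dim to be tested there. Cdkn2c in C3H and Ccnd1 in C3H kept their calls under all 14 alternatives run. The cause of each change below was not tested, except that the slide block, leaving out animals and the filter change what is compared.

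For CD-1 mice the 1900 calls over all genes became 5358 with normexp, 6172 in the joint fit, 1164 with a replicate block, and 939 to 2164 when an animal was left out. With normexp 1 G1 gene passed there (Cdkn1b, -0.35). For hCAR/hPXR mice the 11643 calls became 440 with the slide block, and 10772 to 12199 with an animal left out. The 7 G1 genes called there became 4 in the joint fit, 0 with the slide block, and 6 to 7 with an animal left out. For C3H mice the 2682 calls became 612 with no filter, 1543 with a replicate block, and 575 to 5386 with an animal left out (5386 without PB animal 1). The 4 G1 genes called there became 2 with the mean of all probes, and 3 to 4 with an animal left out. The replicate block took the call from Cdk4 in C3H (adjusted p = 0.0730) and changed no other G1 call; in C3H every PB animal correlated best with the control of its own number, a hint from the data only.

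Counts between strains take in genes tested within only 1 of the strains compared. Of the 7748 differences in PB effect of hCAR/hPXR against CD-1, 5985 were in genes tested in both strains. With a weight per strain the 7748 became 4856. The 4004 of C3H against CD-1, with 2512 of them in genes tested in both strains, became 7750 with normexp and 2326 with weights. The 1964 of C3H against hCAR/hPXR became 853 with quantile normalization and 3632 with weights. With no filter, control levels differed from CD-1 for 32503 genes in hCAR/hPXR and 32097 in C3H. Quantile normalization gave 5408 for C3H against hCAR/hPXR controls, against 9557. The share of calls that were higher was 23.2% in CD-1 and 43.3% with normexp. For the PB effect it was 68.2% for hCAR/hPXR against CD-1 (57.7% with quantile normalization, 54.9% with normexp), and 43.5% for C3H against hCAR/hPXR (59.8% and 53.6%). For C3H against hCAR/hPXR controls it was 61.6% (48.8% with quantile normalization).

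Signs turned mostly at small differences. Genes not tested within CD-1 are left out of the contrasts against it here, except Cdkn2b in the control levels. The main Cdkn2b probe was well above background in 1 of 4 CD-1 controls. Its turns of sign against CD-1 are listed only as such, and no difference in level is read from them. With quantile normalization Ccnd3 in CD-1 was 0.018, and with an animal left out -0.32 to 0.0090. Ccnd2 in C3H was -0.25 to 0.092 with an animal left out. With quantile normalization the difference in PB effect of C3H minus CD-1 was -0.14 for Ccnd3 (-0.11 with the mean of probes). That of C3H minus hCAR/hPXR was -0.041 for Ccne1 (-0.056 with normexp) and 0.041 for Cdkn1b, and with the mean of probes -0.046 for Cdk4. Control levels minus CD-1 turned for Cdk4 in hCAR/hPXR (1.21, mean of probes) and C3H (-1.65 with quantile normalization, -1.70 with normexp), and for Cdkn2b in hCAR/hPXR (1.04 with quantile normalization, 0.050 with normexp) and C3H (-1.37, mean of probes). For C3H minus hCAR/hPXR controls they turned for Ccnd3 (-0.019 with quantile normalization, -0.090 with normexp) and Ccne1 (0.12 and 0.018). The slide block could not be run in CD-1 or C3H mice. Dim signal limits Ccne2 and Cdk6 everywhere, Ccnd1, Ccne1 and Cdkn2c in CD-1, and the main but not the second Cdkn2b probe in CD-1.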
